A study of Mus musculus with 8 samples.

Results

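The 10 genes described here are ones whose transcription is known to be switched on by FOXO factors, measured by RNA-seq in mouse 3T3-L1 adipocytes. They were picked by name from knowledge of the pathway and not by a threshold on the counts, with earlier results of these data known. The members are Sesn1, Sesn3, Cdkn1b, Ccng2, Bcl6, Fbxo32, Txnip, Pik3ip1, Gadd45a and Bnip3. These are 10 of the 43629 genes in the count file, and all 10 passed the filter on low counts. The cells were 3T3-L1, an established mouse line of preadipocytes that turns into fat-storing cells when given a hormone mix, here insulin, dexamethasone, IBMX and rosiglitazone. On day 8 of differentiation they were left untreated, given the drug A66 at 2 µM, given 0.5 mM palmitate bound to albumin, or given palmitate plus A66, in each case for 24 h. There were 4 groups of 2 libraries, 8 in all, and every group came from the same line in the same high-glucose, serum-containing medium. The labels call the first group untreated, whereas the study's methods describe a DMSO vehicle control and a lower A66 dose, so the vehicle and dose are given here only as labelled. The labels number the libraries but do not say how separate their cultures were; p-values therefore measure the spread between these libraries, and every direction below rests on the treatment that the labels give.

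A66 inhibits p110α, the catalytic subunit of phosphoinositide 3-kinase (PI3K) that carries most of the insulin signal in fat cells. Active PI3K leads to AKT, which phosphorylates the forkhead factors FOXO1, FOXO3 and FOXO4 and holds them in the cytoplasm; when the signal falls, FOXO factors enter the nucleus and bind the DNA core TGTTTAC, or GTAAACA on the other strand. Their known targets slow the cell cycle (Cdkn1b, Ccng2, Gadd45a), restrain growth signalling (Sesn1, Sesn3, Pik3ip1), drive protein and mitochondrial turnover (Fbxo32, Bnip3) and control glucose uptake and transcription (Txnip, Bcl6). Most of these genes also answer to other factors, such as p53, HIF, ATF4 and the glucocorticoid receptor. Palmitate is a saturated fatty acid that can blunt insulin signalling.

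The libraries held between 42247091 and 57529803 counts. A count of 3 corresponded to 0.0521 to 0.0710 CPM, the counts of a library scaled to a common total, and the lowest count of any member in any library was 622, for Fbxo32, against a highest of 39245, for Txnip. The 11 adipocyte markers were abundant, with summed levels of 8995 to 9285 CPM in untreated, 9289 to 9835 in A66, 8289 to 9065 in palmitate and 7987 to 8762 in palmitate plus A66 libraries. The 8 preadipocyte markers summed to between 919 and 1133 CPM, with the defining marker Dlk1 and Dpp4 at 0 counts in every library. The 6 macrophage markers summed to 5.79 to 8.79 CPM, nearly all of it Cd68 (2.57 to 5.74 CPM) and Lyz2 (2.14 to 3.52 CPM), with Adgre1 at 0 throughout and Ptprc at no more than 1 count in any library. The 4 endothelial markers summed to 0.847 to 1.28 CPM, with Kdr at 0 throughout.

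On a per-length scale (CPM per kilobase of annotated exon) the 10 members lay between 2.06 and 233 in untreated cells. Txnip, an arrestin-like protein that limits glucose uptake and binds thioredoxin, stood highest at 233 ± 1.00 CPM per kb (SD, n = 2), at the 99.3rd percentile of 14472 genes. Bnip3, a mitophagy receptor of the outer mitochondrial membrane, followed at 165 ± 7.35, and Gadd45a, a stress-induced growth-arrest protein, at 35.7 ± 2.50. Cdkn1b, the cyclin-dependent kinase inhibitor p27, lay at 23.5 ± 0.300 and Ccng2, an unconventional cyclin found in arrested cells, at 13.9 ± 0.390 CPM per kb. Pik3ip1, a membrane protein that binds and inhibits p110, had 10.8 ± 0.607. Below it came the stress-induced mTORC1 inhibitor Sesn1 at 8.93 ± 0.383 and the transcriptional repressor Bcl6 at 8.15 ± 0.0317. Its relative Sesn3 lay at 4.36 ± 0.323, close to the median of all genes of 4.79, and Fbxo32, the ubiquitin ligase subunit atrogin-1, was lowest at 2.06 ± 0.0525 CPM per kb. No neighbours in this order overlapped between untreated libraries. With palmitate plus A66 the per-length levels of Pik3ip1, at 13.2 ± 0.542, and Ccng2, at 13.1 ± 0.146, did not differ beyond their spread.

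**Figure D1:**
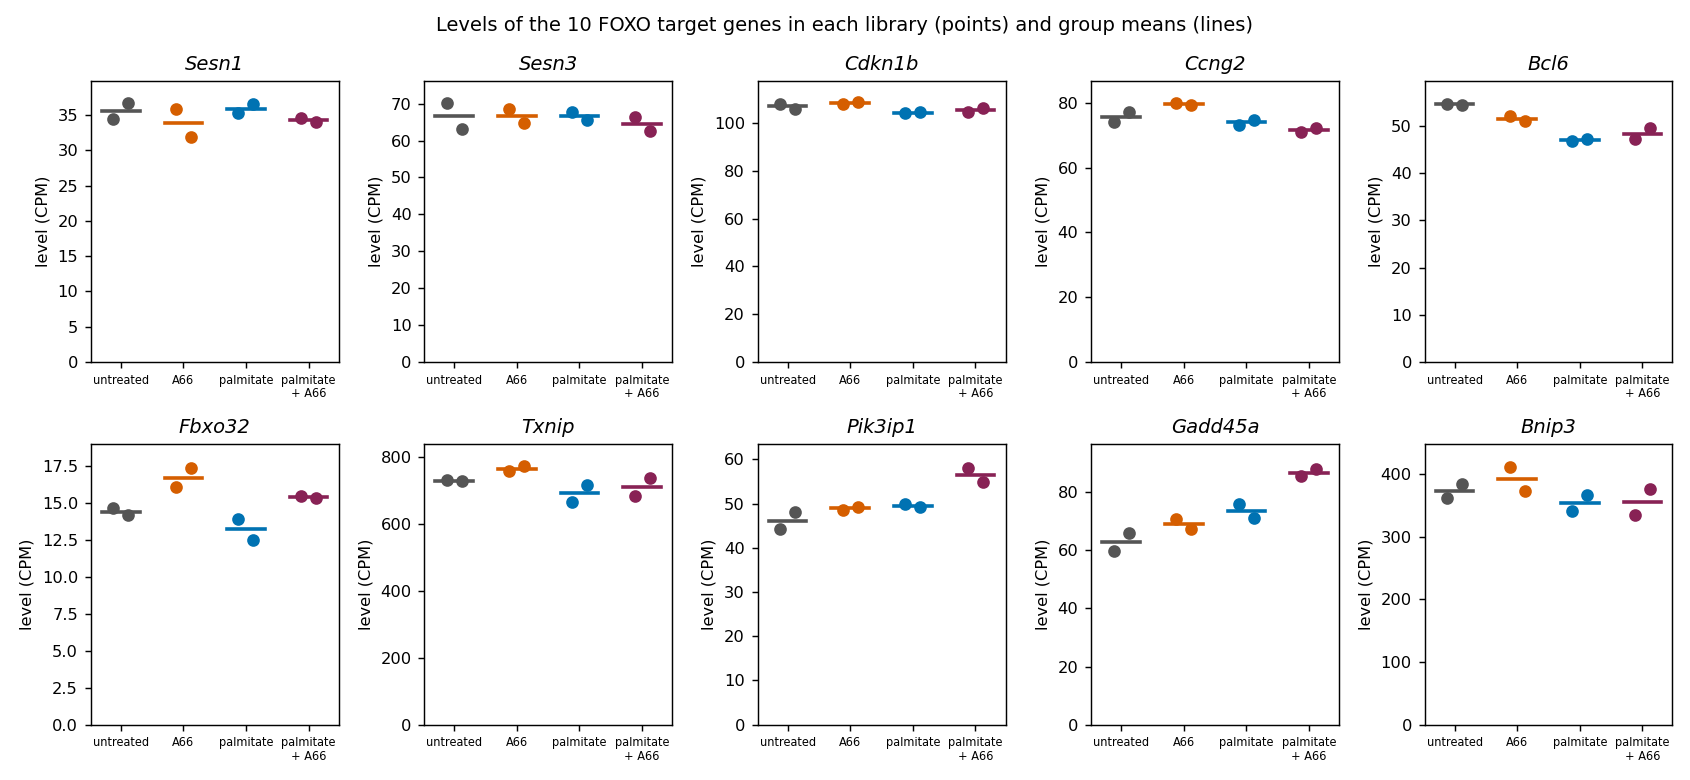
CPM of each of the 10 members in the 8 libraries, 1 panel per gene, with points for single libraries and lines for the group mean, for untreated, A66, palmitate and palmitate plus A66 cells. Gadd45a runs from 59.9 CPM in an untreated library to 88.2 CPM in a palmitate plus A66 library, whereas Cdkn1b stays between 104 and 109 CPM.

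Gadd45a and Pik3ip1, the members that changed most often, are shown with their promoters beside those of Sesn1 and Txnip, which hold the FOXO core but passed no test. The windows are 300 bases of RefSeq sequence on GRCm38.p6, from 250 bases before to 50 after an annotated start and written on the gene's own strand. They lie at chr6:67037358-67037657 on the minus strand (Gadd45a), chr11:3330481-3330780 (Pik3ip1), chr10:41810324-41810623 (Sesn1) and chr3:96557707-96558006 (Txnip), the last 3 on the plus strand. Capitals mark a match to GTAAACA or, on the other strand, TGTTTAC.
Gadd45a promoter: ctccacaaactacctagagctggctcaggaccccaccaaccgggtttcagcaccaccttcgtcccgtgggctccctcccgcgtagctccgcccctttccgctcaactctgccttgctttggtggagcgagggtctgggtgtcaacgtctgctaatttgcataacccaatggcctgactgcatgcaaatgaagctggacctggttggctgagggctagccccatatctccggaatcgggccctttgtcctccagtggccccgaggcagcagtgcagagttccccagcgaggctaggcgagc
Pik3ip1 promoter: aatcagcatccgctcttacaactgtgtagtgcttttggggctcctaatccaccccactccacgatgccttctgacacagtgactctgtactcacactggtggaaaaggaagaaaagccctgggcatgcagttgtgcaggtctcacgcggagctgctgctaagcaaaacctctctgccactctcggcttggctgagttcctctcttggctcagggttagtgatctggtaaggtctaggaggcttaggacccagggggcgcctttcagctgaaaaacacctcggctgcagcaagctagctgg
Sesn1 promoter: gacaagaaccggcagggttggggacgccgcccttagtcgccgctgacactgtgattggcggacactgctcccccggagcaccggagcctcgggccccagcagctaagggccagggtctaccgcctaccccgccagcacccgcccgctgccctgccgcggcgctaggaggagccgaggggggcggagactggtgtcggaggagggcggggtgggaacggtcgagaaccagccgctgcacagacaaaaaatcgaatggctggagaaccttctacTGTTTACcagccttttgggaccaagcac
Txnip promoter: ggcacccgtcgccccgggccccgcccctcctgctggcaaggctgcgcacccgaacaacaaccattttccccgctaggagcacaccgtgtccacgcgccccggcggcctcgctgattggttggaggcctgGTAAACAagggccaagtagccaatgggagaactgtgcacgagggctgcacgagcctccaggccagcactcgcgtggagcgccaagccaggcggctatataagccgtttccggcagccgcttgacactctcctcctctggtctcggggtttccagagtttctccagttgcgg

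The core was found in 1 window each of Sesn1, where it begins 23 bases after the start, and Txnip, where it begins at position -121. RefSeq windows matched 9 of the 10 members, with 11 windows in all, and no window was given for Fbxo32. In all, 2 of these 11 windows held the 7-base core, against 3.65% of 32851 mouse promoter windows. A second forkhead sequence, AAAACAA or TTGTTTT, was also in 2 of 11, another window of Sesn1 and that of Ccng2, against 9.02% of all. The shorter AAACA or TGTTT, which lies within both, was in 8 of 11 windows against 50.5%. Gadd45a held none of these, which says only that those letters are absent from these 300 bases.

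The first question was what A66 did to these genes in cells without palmitate. No member passed the test (edgeR quasi-likelihood, adjusted p under 0.05), against 1.84% of the 14158 genes tested, 2 members had an unadjusted p under 0.05 as did 12.8% of all genes, and DESeq2 also called 0. The members' median log2 fold change was 0.07 and that of all genes 0.00, and 8 of 10 estimates were above 0. Adipocyte markers had a median of 0.06 here, with 8 of 11 above 0, 3 below and 0 called. Their part in the members' values was not tested. The 2 libraries of each group did not overlap for 6 of the 10 members, against 42.5% of all genes.

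Of the cell cycle genes, Gadd45a (ENSMUSG00000036390, chr6:67035096-67037457) had 59.9 and 66.1 CPM in untreated cells and 70.8 and 67.3 with A66, without overlap. The log2 fold change was 0.13 (SE 0.05, 95% interval 0.02 to 0.24, adjusted p = 0.256). The estimate ran from 0.07 without untreated replicate 1 (adjusted p = 0.717) to 0.21 without untreated replicate 2 (adjusted p = 0.00942, the 1 such fit that passed), with adjusted p up to 0.848 without A66 replicate 1. Ccng2 (chr5:93267257-93276231) had 74.2 and 77.2 CPM in untreated cells and 79.9 and 79.4 with A66, a difference of 0.08 (interval -0.02 to 0.17, adjusted p = 0.523). Cdkn1b (chr6:134920401-134925513) had 108 and 106 CPM against 108 and 109, a difference of 0.02 (interval -0.07 to 0.11).

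Among the genes that restrain growth signalling, Pik3ip1 (ENSMUSG00000034614, chr11:3330401-3342971) had 44.3 and 48.0 CPM in untreated cells and 48.6 and 49.2 with A66. Its groups did not overlap, but the estimate of 0.08 (interval -0.03 to 0.20) did not pass (adjusted p = 0.571). The sestrins overlapped between the groups. Sesn1 (chr10:41809935-41908424) had 34.5 and 36.7 CPM untreated and 35.9 and 31.9 with A66, a log2 difference of -0.07 (interval -0.20 to 0.07). Sesn3 (chr9:14275067-14333101) had 70.1 and 63.1 against 68.6 and 64.8, a difference of 0.01 (interval -0.10 to 0.12).

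Fbxo32 (ENSMUSG00000022358, chr15:58175879-58214932), the turnover gene with the lowest level, had the largest estimate of the 10 with A66 alone. Its libraries held 14.6 and 14.1 CPM in untreated cells and 16.0 and 17.3 with A66, without overlap. The log2 fold change was 0.22 (SE 0.08, interval 0.04 to 0.39), with an adjusted p of 0.239. Bnip3 (chr7:138890836-138909519) had 362 and 385 CPM untreated and 412 and 374 with A66, overlapping groups with a difference of 0.08 (interval -0.02 to 0.17). Txnip (chr3:96557957-96561883) had 730 and 726 CPM untreated against 756 and 771, a difference of 0.07 (interval 0.00 to 0.15, adjusted p = 0.438). Bcl6 (chr16:23965052-23988852) had 54.7 and 54.4 CPM untreated against 52.0 and 51.0, a difference of -0.08 (interval -0.18 to 0.02, adjusted p = 0.550). The last pair were separated between groups in opposite directions, and neither passed.

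**Figure D2:**
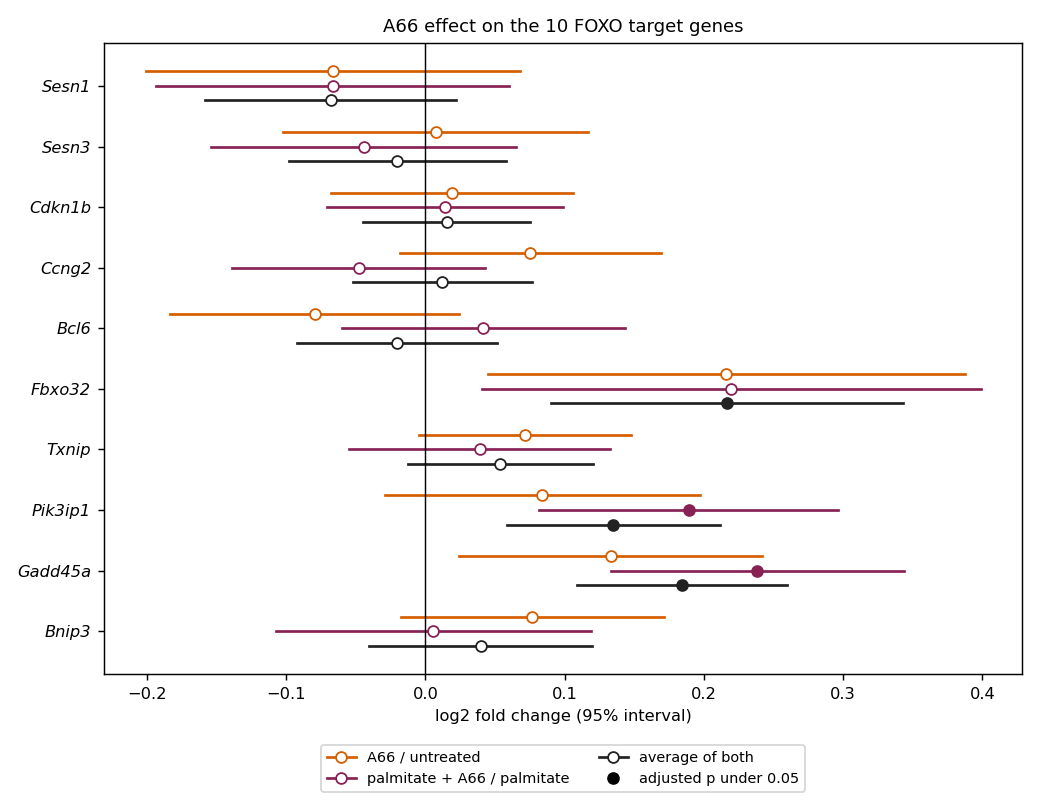
Log2 fold change with its 95% interval for each member with A66 alone against untreated, with A66 on top of palmitate against palmitate, and averaged over both. Filled points have an adjusted p under 0.05; Gadd45a, at 0.24, and Pik3ip1, at 0.19, are filled in the comparison within palmitate-treated cells.

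With palmitate present in both groups, A66 went with higher Gadd45a and Pik3ip1. These were 2 of 10 members called, both higher, where 2.81% of 14587 genes were called in either direction and 0.973% were called higher. Gadd45a stood at 75.9 and 71.3 CPM on palmitate alone and at 85.5 and 88.2 CPM once A66 was added, a log2 fold change of 0.24 (SE 0.05, interval 0.13 to 0.34, adjusted p = 0.00904). Pik3ip1 had 49.9 and 49.2 CPM with palmitate and 58.2 and 54.9 with both agents, a change of 0.19 (SE 0.05, interval 0.08 to 0.30, adjusted p = 0.0499). Neither gene's groups overlapped. The Gadd45a call was lost without palmitate replicate 2 (0.19, adjusted p = 0.147) and without palmitate plus A66 replicate 2 (0.22, adjusted p = 0.103). The Pik3ip1 call, which lay at the threshold, was lost with library-size scaling (adjusted p = 0.0911), with DESeq2 (0.0594) and with a replicate block (0.0533). It was also lost without any 1 of the 6 libraries that had received a treatment (log2 change 0.15 to 0.23).

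Fbxo32 showed the same size of difference here as without palmitate, with 13.9 and 12.5 CPM in palmitate and 15.4 and 15.3 in palmitate plus A66 libraries (0.22, interval 0.04 to 0.40, adjusted p = 0.215). Its groups did not overlap, but it did not pass. The other 7 members lay between -0.07 and 0.04. The largest in size was Sesn1, with 35.2 and 36.6 CPM in palmitate against 34.6 and 34.0 with both agents. The members' median was 0.03 and that of all genes 0.00. In this comparison 3 of the 11 adipocyte markers were called lower and 0 higher, with a median of -0.15, and the preadipocyte marker Col1a1 was also called lower (-0.33); their part in the members' values was not tested. In bulk samples, fewer cells of a type and less RNA per cell cannot be told apart.

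The A66 effect averaged over cells with and without palmitate used all 8 libraries. It passed for 3 of 10 members, all higher, where 4.97% of genes were called in either direction and 2.17% higher. Gadd45a rose by 0.18 (SE 0.04, interval 0.11 to 0.26, adjusted p = 0.00312), Pik3ip1 by 0.14 (SE 0.04, interval 0.06 to 0.21, adjusted p = 0.0343) and Fbxo32 by 0.22 (SE 0.06, interval 0.09 to 0.34, adjusted p = 0.0406). In these same 3 of the 10 members, both libraries with A66 were above both without it in each palmitate state, as in 7.03% of all genes; the calls rest on the same values. In this average 3 adipocyte markers (Slc2a4, Cidec and Retn) and Col1a1 were called lower and the preadipocyte marker Ly6a higher (0.26), and their part in the members' values was not tested. Gadd45a passed when any 1 of the 8 libraries was left out (adjusted p from 7.74e-04 to 0.0280). Pik3ip1 passed in 2 of these 8 and Fbxo32 in 1 of 8, with adjusted p up to 0.153 and 0.179. For Pik3ip1 the fits that passed were those without untreated replicate 2 or palmitate plus A66 replicate 2, and for Fbxo32 the one without palmitate replicate 1. With library-size scaling, Gadd45a was the 1 member that passed. The remaining 7 members lay between -0.07 and 0.05 on the log2 scale.

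**Figure D3:**
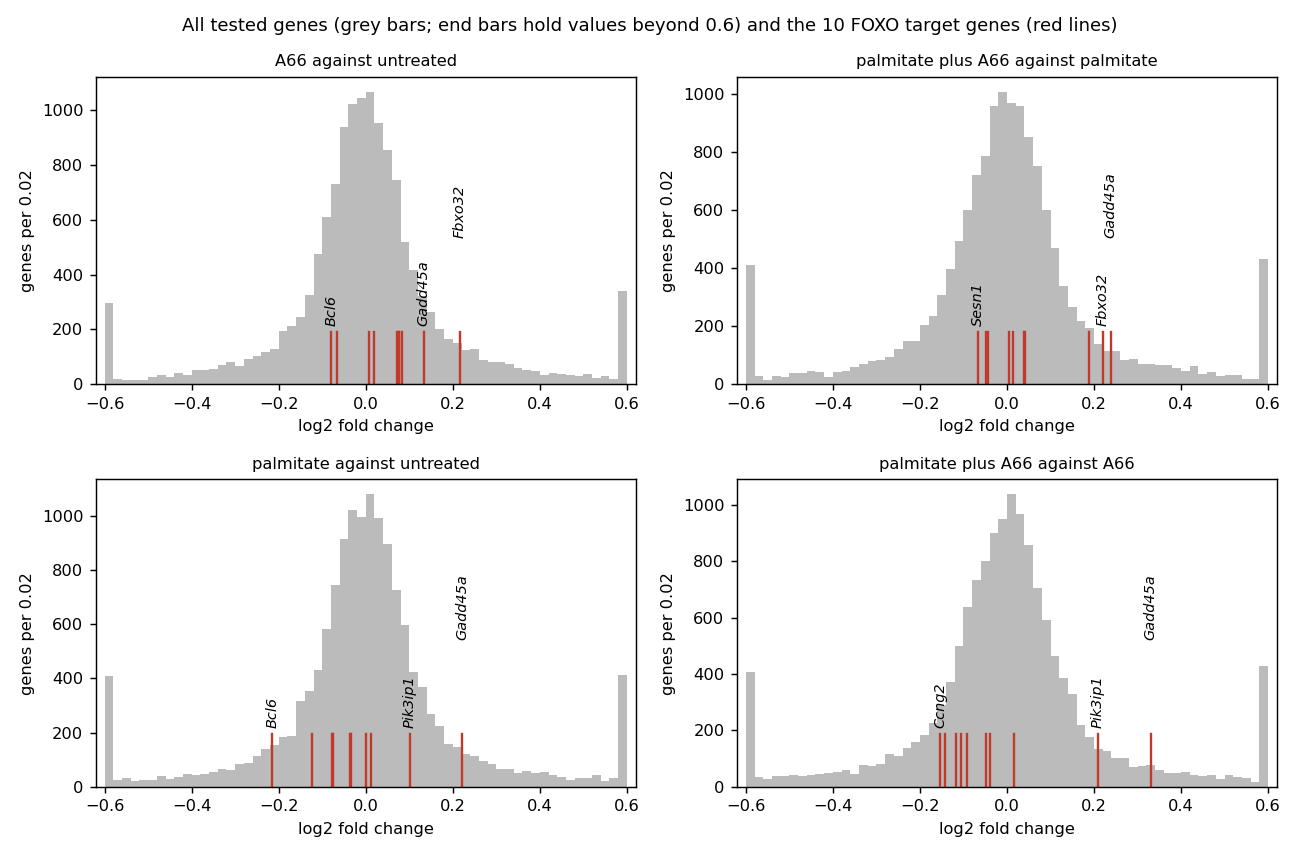
Numbers of all genes tested (vertical axis, grey) by log2 fold change (horizontal axis) in each of 4 comparisons, with the 10 members as red lines and the lowest and the 2 highest named. The members' median was 0.07 for A66 against untreated and 0.03 for palmitate plus A66 against palmitate, beside 0.00 for all genes in both. For palmitate plus A66 against palmitate, Pik3ip1, Fbxo32 and Gadd45a (0.19, 0.22 and 0.24) lie to the right of the other members.

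A second question was what palmitate did on its own. Palmitate against untreated gave 2 of 10 members called, 1 in each direction, where 1.17% of genes were called, 0.631% higher and 0.542% lower. Bcl6 fell from 54.7 and 54.4 CPM in untreated cells to 46.8 and 47.3 CPM (log2 change -0.21, SE 0.05, interval -0.32 to -0.11, adjusted p = 0.0284). Gadd45a rose from 59.9 and 66.1 to 75.9 and 71.3 CPM (0.22, SE 0.05, interval 0.11 to 0.33, adjusted p = 0.0327). Both genes separated the groups without overlap. The Bcl6 estimate lay between -0.22 and -0.21 whichever library was left out, but its adjusted p rose to 0.143 and 0.0784 without untreated replicate 1 and 2, and to 0.204 and 0.0700 without palmitate replicate 1 and 2. Gadd45a lost its call without untreated replicate 1 (0.15, adjusted p = 0.367), without palmitate replicate 1 (0.18, adjusted p = 0.335) and with a correction for gene length (adjusted p = 0.0536).

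The remaining 8 members did not pass with palmitate alone. Pik3ip1 was at 49.9 and 49.2 CPM against 44.3 and 48.0 in untreated cells, an estimate of 0.10 (interval -0.01 to 0.21, adjusted p = 0.460). Txnip had 665 and 715 CPM with palmitate, below its untreated 730 and 726, at -0.08 (interval -0.17 to 0.02). Fbxo32, with 13.9 and 12.5 CPM, lay at -0.12 (interval -0.30 to 0.06). With palmitate the groups were separate for 6 of the 10 members, 2 higher and 4 lower, as they were for 40.5% of all genes. Of the cell type markers Col1a1 was called, higher by 0.25. Of the 11 adipocyte markers, 10 lay below 0 and 1 above, with a median of -0.08, and 0 were called. The part of these markers in the members' values was not tested. Bnip3 was at 341 and 367 CPM (-0.08), and the sestrins, Cdkn1b and Ccng2 lay between -0.04 and 0.01.

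Palmitate was also compared in the presence of A66. Palmitate plus A66 against A66 gave 2 of 10 members called, both higher, against 2.73% of genes in either direction and 1.46% higher. Gadd45a rose from 70.8 and 67.3 to 85.5 and 88.2 CPM (0.33, SE 0.05, interval 0.22 to 0.44, adjusted p = 3.76e-04), and it passed whichever of the 8 libraries was left out. Pik3ip1 rose from 48.6 and 49.2 to 58.2 and 54.9 CPM (0.21, SE 0.05, interval 0.10 to 0.32, adjusted p = 0.0284). Its call was lost without A66 replicate 1 (adjusted p = 0.286), A66 replicate 2 (0.126) or palmitate plus A66 replicate 1 (0.343), and with library-size scaling (0.19, adjusted p = 0.0514).

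In that comparison 7 of the 10 estimates were below 0, with a median of -0.07, and none of these passed. The groups were separate for 7 of the 10 members, 2 higher and 5 lower, against 46.6% of all genes. Ccng2 had 71.0 and 72.2 CPM with both agents against 79.9 and 79.4 with A66, separated groups at -0.15 (interval -0.24 to -0.06, adjusted p = 0.0627). It passed with library-size scaling (-0.17, adjusted p = 0.0373), with a length correction (-0.16, adjusted p = 0.0429) and when only these 4 libraries were fitted (-0.15, adjusted p = 0.0323). Bnip3 had 335 and 376 CPM against 412 and 374, overlapping groups at -0.14 (adjusted p = 0.191). Its adjusted p was 0.0188 with no filter on low counts and 0.0475 without palmitate plus A66 replicate 2. Txnip had 681 and 737 CPM against 756 and 771, at -0.11 (adjusted p = 0.255). Fbxo32 had 15.4 and 15.3 CPM against 16.0 and 17.3, separated groups at -0.12 (adjusted p = 0.578), and Bcl6 lay at -0.09 (adjusted p = 0.412). In the same comparison 7 of the 11 adipocyte markers were called lower and none higher, with a median of -0.24; the macrophage marker Cd68 was called higher (0.91). The part of these markers in the members' values was not tested.

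Palmitate plus A66 against untreated gave 3 of 10 members called, 2 higher and 1 lower, where 7.50% of genes were (3.79% higher and 3.71% lower). Gadd45a stood at 85.5 and 88.2 CPM against 59.9 and 66.1, a log2 change of 0.46 (SE 0.05, interval 0.35 to 0.57, adjusted p = 3.38e-06), or 37.6% higher. Pik3ip1 stood at 58.2 and 54.9 CPM against 44.3 and 48.0, a change of 0.29 (SE 0.05, interval 0.18 to 0.40, adjusted p = 0.00100), or 22.2% higher. These increases passed in all 8 fits that left out 1 library. Bcl6, at 47.3 and 49.5 CPM against 54.7 and 54.4, fell by 0.17 on the log2 scale (SE 0.05, interval -0.27 to -0.07, adjusted p = 0.0317). The Bcl6 call passed in 3 of those 8 fits, with adjusted p up to 0.293 (without palmitate plus A66 replicate 1), and was also lost without untreated replicate 1 or 2, A66 replicate 1 or palmitate plus A66 replicate 2, and when only these 4 libraries were fitted (adjusted p = 0.0543). The other 7 members lay between -0.08 and 0.10. Of the 11 adipocyte markers, 5 were called lower and 0 higher here, with a median of -0.19, and Cd68 (0.88) and Ly6a (0.41) were called higher; their part in the members' values was not tested. This comparison shares its untreated libraries with both single-agent comparisons, and its palmitate plus A66 libraries with those above.

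**Figure D4:**
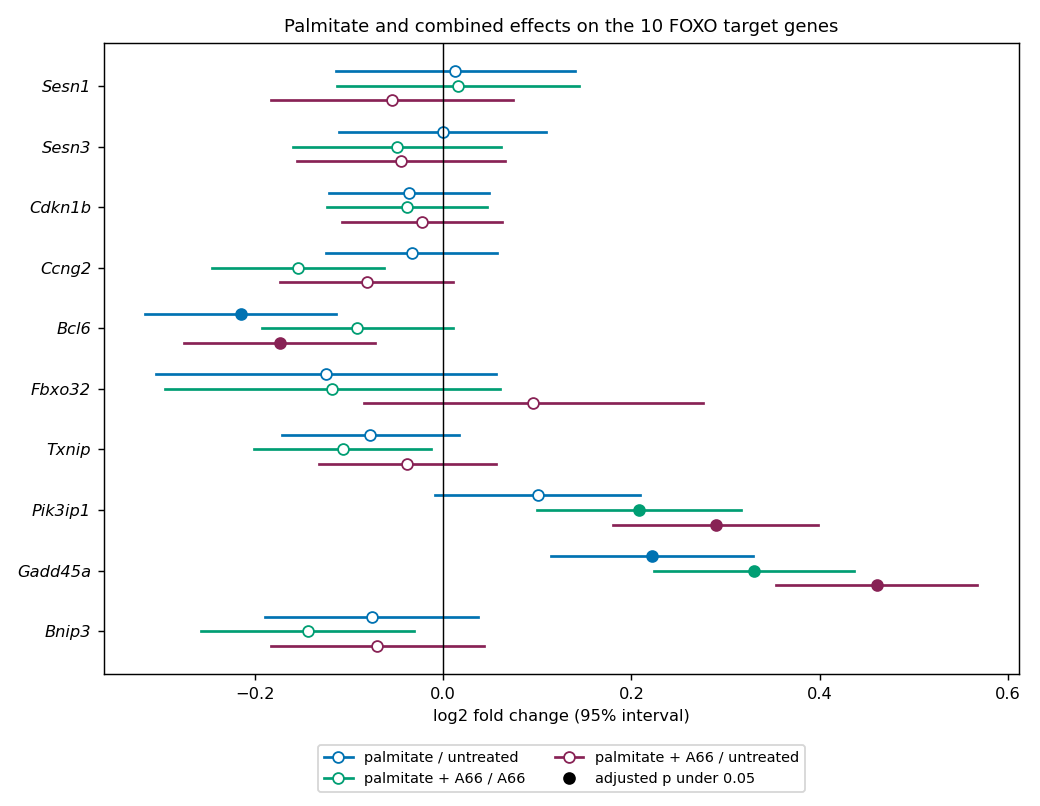
Log2 fold change with its 95% interval for each member with palmitate against untreated, palmitate plus A66 against A66, and palmitate plus A66 against untreated. Filled points have an adjusted p under 0.05: Gadd45a is filled in all 3 (0.22, 0.33 and 0.46), Pik3ip1 in the latter 2 (0.21 and 0.29), and Bcl6 lies below 0 where it is filled (-0.21 and -0.17).

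Whether the A66 effect differed with palmitate was tested by the interaction term. It was called for 0 of 10 members with edgeR, and DESeq2 called 0. Of all 14587 genes 1 was called with edgeR (0.00686%), Hmox1. An unadjusted p under 0.05 was found for 0 of 10 members and for 7.92% of all genes, so this count does not set the members apart. The estimates for members ran from -0.12 for Ccng2 (interval -0.25 to 0.01) to 0.12 for Bcl6 (interval -0.02 to 0.27). For Gadd45a the interaction was 0.11 (interval -0.04 to 0.26) and for Pik3ip1 also 0.11 (interval -0.05 to 0.26), so that a larger A66 effect with palmitate was not shown for either gene. In both, the 4 groups followed the order untreated, A66, palmitate, palmitate plus A66 without any overlap between libraries. For Pik3ip1 the gap between A66 replicate 2 and palmitate replicate 2, both 49.2 CPM when rounded, was smaller than the spread within either group. The same held for Gadd45a between A66 and palmitate (70.8 and 71.3 CPM in the nearest libraries) and between untreated and A66 (66.1 and 67.3 CPM), so the order of these groups is not shown for either gene. This order was noticed after the values were seen, and 0.226% of all genes (33 of 14587) share it.

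Genes with the pattern nearest to these 2 were found from the 4 group means of log2(CPM + 0.5), each gene centred on its own mean, among 14586 other genes. For Pik3ip1 they were Troap, Lgmn and Zyx, with root-mean-square differences of 0.00669, 0.0108 and 0.0123 on the log2 scale. For Gadd45a they were Vmn2r3, Ang and Wfikkn1, at 0.0169, 0.0179 and 0.0187. With 4 group means per gene, many patterns lie close to each other.

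Annotated genes on the opposite strand share exon bases with some members, and the setting for strand in counting was not given in the sources used here. E230016M11Rik covers 19.1% of the Gadd45a exon bases, yet had 210 to 265 counts per library where Gadd45a had at least 2544. Gm15441 covers 19.4% of Txnip, with 10 to 31 counts. Gm12592 covers 2.13% of Pik3ip1, with 16 to 34 counts, and Gm15943 covers 2.67% of Fbxo32, with 0 to 1. The widest overlap was that of Gm45507 with 22.3% of the Bnip3 exon bases, and Gm37419 covers 0.313% of Bcl6; counts of these 2 overlapping genes were not analysed here.

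Other genes that FOXO factors are known to induce were read from a list of 36, of which 30 were tested. With A66 alone, 1 was called higher and 1 lower: Pink1, the kinase that starts mitophagy, rose by 0.18 (SE 0.05, adjusted p = 0.0497), while Cdkn1a, the cell cycle inhibitor p21, fell by 0.19 (SE 0.04, adjusted p = 0.0173). The list's median was 0.03 beside 0.00 for all genes, of which 1.07% were called higher and 0.770% lower. Within palmitate-treated cells, A66 again gave 1 in each direction, where 0.973% of all genes were called higher and 1.84% lower. Gabarapl1, an autophagosome protein, rose by 0.20 (SE 0.04, adjusted p = 0.00837) and Klf15, a metabolic transcription factor, fell by 0.19 (SE 0.05, adjusted p = 0.0278), with a median of 0.00. Averaged over both palmitate states, 3 rose (Gabarapl1 by 0.18, Pink1 by 0.12 and Bnip3l, a mitophagy receptor related to Bnip3, by 0.10). In that average Cdkn1a fell by 0.14 and Pnpla2, the lipase that opens fat breakdown, fell by 0.13. Of all genes, 2.17% were called higher and 2.80% lower in the average.

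In the palmitate comparisons most calls on this list were lower, and the list was not tested as a set. Against untreated, Pnpla2 was the 1 gene called, at -0.25 (SE 0.05, adjusted p = 0.0164). There 0.631% of all genes were called higher and 0.542% lower. In the presence of A66, 4 were lower and 0 higher, where 1.27% of all genes were called lower and 1.46% higher. Klf15 fell by 0.26 (SE 0.05, adjusted p = 0.00234), Pck1, the glyceroneogenic enzyme PEPCK, by 0.56 (SE 0.11, adjusted p = 0.00442), and Pnpla2 by 0.25 (SE 0.05, adjusted p = 0.00637). With both agents against untreated, Gabarapl1 rose by 0.27 (adjusted p = 3.12e-04) and 4 fell, among them Pnpla2 by 0.38 (adjusted p = 4.08e-05), Klf15 by 0.26 (adjusted p = 0.00136) and Pck1 by 0.45 (adjusted p = 0.0131). With both agents against untreated, 3.79% of all genes were called higher and 3.71% lower. No listed gene passed the interaction test. Pnpla2 and Pck1 are also adipocyte-rich genes, and the adipocyte markers, 7 of 11 called lower in palmitate plus A66 against A66, moved with them; their part in these values was not tested.

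The FOXO genes themselves did not pass in any comparison. Foxo1 lay between 36.0 and 40.4 CPM, Foxo3 between 40.6 and 44.4, Foxo4 between 57.8 and 74.3 and Foxo6 between 0.789 and 1.70 over the 8 libraries. Among the 17 tested of 18 genes listed as FOXO factors and upstream kinases, A66 gave 1 call without palmitate, against 1.84% of all genes. That gene was Pik3r1, the p85α regulatory subunit of PI3K. It fell by 0.32 (SE 0.04, adjusted p = 1.34e-04), and with palmitate present in both groups by 0.39 (SE 0.04, adjusted p = 1.97e-05). The average A66 effect added a fall of 0.13 in Pik3r3, another regulatory subunit (adjusted p = 0.0112). Palmitate called none of these genes, without or with A66, where 1.17% and 2.73% of all genes were called.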

How the data were processed

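The deposited file holds raw read counts per Ensembl gene for 8 libraries of poly(A) RNA (TruSeq Stranded mRNA kit), which the authors made by aligning reads with TopHat2 2.0.11 to GRCm38 and counting with HTSeq; the annotation release and strand setting are not given in the sources used here. Its other columns hold the authors' own DESeq2 comparisons (mean of normalized counts, log2 fold change, standard error, test statistic, p and adjusted p) and were not used. Symbols were matched by gene ID to GENCODE M21 for 42548 of 43629 genes.

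Genes were filtered with filterByExpr (minimum count 10) and tested in edgeR 4.0.16 (R 4.3.3) with TMM scaling, the quasi-likelihood F test and Benjamini-Hochberg adjustment over all genes tested, at a threshold of 0.05. A66 against untreated was fitted on its 4 libraries (biological coefficient of variation 0.0377); other comparisons came from 1 fit of all 8 libraries (0.0406). Standard errors were taken as the fold change divided by the square root of F, and intervals are 95% intervals. CPM values are TMM-scaled; CPM per kb used the union of annotated exons. Patterns used log2(CPM + 0.5). Libraries of a group differed by 6.15 to 8.99 times counting noise per gene. Intervals and floors that rest on counts alone cover counting error only.

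The members and lists were chosen with earlier results of these data known. All 10 members are named; from each list, at most 3 genes with the smallest p in each direction are named, besides Foxo1, Foxo3, Foxo4 and Foxo6, and the 3 nearest patterns for members called in A66 against untreated or in palmitate plus A66 against palmitate. Some genes of these lists are not reported here. The script was tested on simulated data. Alternatives were other scalings, DESeq2 1.42.0, other filters, a replicate block, a length correction, other sets of libraries and leaving out each library.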

Additional observations from a re-analysis of the deposited data

How the results depend on the processing

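Of 1130 values of single members under the alternatives, 1079 kept their side of the threshold, 44 lost and 7 gained a call, and none of those called changed direction. The number of members called changed as follows. For palmitate plus A66 against palmitate it was 1, Gadd45a, in place of 2 with library-size scaling, with DESeq2 and with the replicate block (Pik3ip1 adjusted p = 0.0911, 0.0594 and 0.0533). For the average A66 effect it was 1 in place of 3 with library-size scaling. For palmitate against untreated it was 1, Bcl6, in place of 2 with the length correction and with the replicate block plus length correction. For palmitate plus A66 against A66 it was 3 in place of 2 with no filter (Bnip3 added), and with the length correction, the replicate block plus length correction and only 4 libraries (Ccng2 added, adjusted p = 0.0429, 0.0473 and 0.0323). In that comparison library-size scaling kept the number at 2 but exchanged Pik3ip1 (adjusted p = 0.0514) for Ccng2 (0.0373). For palmitate plus A66 against untreated it was 2 in place of 3 with only 4 libraries (Bcl6 adjusted p = 0.0543). The labels' replicate numbers did not pair the samples, with correlations of deviations between groups from -0.0944 to 0.119 over 11957 genes, and the block raised the interaction calls from 1 to 3 genes. Leaving out 1 library, which leaves 1 group with a lone library assumed to vary like the others, gave 0 to 1 members for A66 against untreated, 0 to 2 for palmitate plus A66 against palmitate, 1 to 2 for the average A66 effect, 0 to 2 for palmitate against untreated, 1 to 3 for palmitate plus A66 against A66, 2 to 3 for palmitate plus A66 against untreated and 0 to 0 for the interaction.

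Over all genes, no filter on low counts gave 459 calls for A66 against untreated (261 with the filter), 652 for palmitate plus A66 against palmitate (410), 396 for palmitate against untreated (171), 664 for palmitate plus A66 against A66 (398) and 91 for the interaction (1). The interaction gave 2 with library-size scaling and 8 with DESeq2, and fitting only 4 libraries gave 689 for palmitate plus A66 against A66. Leaving out 1 library gave 98 to 635, 147 to 494, 412 to 779, 71 to 245, 107 to 502, 437 to 1236 and 0 to 10 calls for these comparisons in the order above. Library-size scaling moved the share of calls that were higher from 58.2% to 45.0% for A66 against untreated, from 34.6% to 23.4% for palmitate plus A66 against palmitate, from 43.7% to 29.9% for the average, from 53.5% to 40.4% for palmitate plus A66 against A66 and from 50.5% to 29.9% for palmitate plus A66 against untreated, with the median of all genes shifted to at most -0.0301. The cause of these changes was not tested. With 2 libraries a group, the 95% intervals of members in A66 against untreated reached 0.08 to 0.17 to each side.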

Other observations

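Genes tied to other factors that feed into these members were read from 5 further lists. Beside these counts stand the shares of all genes called higher and lower. They were 1.07% and 0.770% with A66 alone, 0.973% and 1.84% within palmitate-treated cells, and 2.17% and 2.80% for the average A66 effect. With palmitate alone they were 0.631% and 0.542%, and for palmitate plus A66 against A66 1.46% and 1.27%. For both agents against untreated they were 3.79% and 3.71%. Of 10 glucocorticoid receptor targets, 5 fell and 0 rose with A66 alone, with a list median of -0.21 against 0.00 for all genes. Zbtb16 fell by 0.40 (edgeR adjusted p = 3.47e-04), Mt2, a metallothionein, by 0.35 (adjusted p = 0.00186) and Per1, a clock gene, by 0.29 (adjusted p = 0.00268). Within palmitate-treated cells 5 of the 10 fell and 0 rose, again with a median of -0.21. There Fkbp5, a chaperone partner of the receptor, fell by 0.32 (adjusted p = 4.25e-04), Mt1 by 0.29 (adjusted p = 0.00184) and Mt2 by 0.34 (adjusted p = 0.00304). The average A66 effect called 7 lower and 0 higher, palmitate against untreated 2 lower, palmitate plus A66 against A66 1 in each direction, and both agents against untreated 5 lower.

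Of a list of 10 genes, Atf4 itself and 9 targets of it, 0 were called with A66 alone (edgeR) and 0 with palmitate alone, and 4 rose with palmitate plus A66 against A66. Atf4 was among them, at 0.25 (adjusted p = 5.79e-04), with 3 targets. Ppp1r15a, a stress phosphatase subunit, rose by 0.37 (adjusted p = 1.22e-04), Asns, asparagine synthetase, by 0.32 (adjusted p = 1.30e-04) and Atf3, a stress-induced factor, by 0.68 (adjusted p = 1.71e-04). Within palmitate-treated cells Atf3 rose by 0.38 (adjusted p = 0.0309), and Atf4 and the same 3 targets were called higher with both agents against untreated. The average A66 effect called 1, Psat1, lower. No gene of this list passed the interaction test. Its median was -0.05 with A66 alone (2 above 0, 8 below) and 0.04 within palmitate-treated cells (6 above, 4 below). With palmitate alone it was 0.09 (9 above, 1 below), and for palmitate plus A66 against A66 0.15 (8 above, 2 below). All genes had a median of 0.00, and the list was not tested as a set.

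Of 11 p53 targets tested, A66 alone and the average A66 effect called 1 lower, Cdkn1a. Palmitate plus A66 against A66 called Tnfrsf10b, a death receptor, higher by 0.35 (adjusted p = 0.00560), and both agents against untreated called 2 higher and 1 lower. A66 within palmitate-treated cells, palmitate alone and the interaction called 0. The median of this list was 0.01 with A66 alone (7 above 0, 4 below) and 0.07 within palmitate-treated cells (10 above, 1 below). With palmitate it was 0.02 (7 above, 4 below), and for palmitate plus A66 against A66 0.06 (11 above, 0 below). For both agents against untreated it was 0.09 (9 above, 2 below). All genes had a median of 0.00, and the list was not tested as a set. Of 12 HIF targets, Bhlhe40, a repressor of the clock family, rose by 0.19 with A66 alone (adjusted p = 0.0456), by 0.18 within palmitate-treated cells (adjusted p = 0.0270), by 0.27 with palmitate (adjusted p = 0.00209) and by 0.45 with both agents (adjusted p = 1.29e-06). With both agents against untreated this list had 2 called higher and 3 lower, with palmitate alone 2 and 2, with palmitate plus A66 against A66 1 and 1, with the average A66 effect 2 and 1, and within palmitate-treated cells 2 and 0. A list for the glucose-sensing factors MondoA and ChREBP, the regulators best known for Txnip, had 6 genes tested: the factors' own genes Mlxip and Mlxipl, their partner Mlx, and 3 targets. In it 1 gene was called, a target: Arrdc4, a relative of Txnip, fell by 0.28 within palmitate-treated cells (adjusted p = 0.0139) and by 0.21 in the average A66 effect (adjusted p = 0.00512).

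Hmox1, the heme-degrading stress enzyme, was the 1 gene called for the interaction, at 0.45 (SE 0.06, adjusted p = 0.00194).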
